A study of Mus musculus with 9 samples.

Results

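The genes described here carry long-chain fatty acids into mitochondria and oxidise them there. They were chosen by name and number 10: the plasma membrane carnitine transporter Slc22a5, the carnitine palmitoyltransferases Cpt1a, Cpt1c and Cpt2, the acyl-CoA dehydrogenases Acadvl, Acadl, Acadm and Acads, and the trifunctional protein subunits Hadha and Hadhb. All 10 were among the 10762 genes of the table. RNA-seq had been run on the melanoma cell line B16.SIY, derived from C57BL/6 mice and tagged with the model antigen SIYRYYGL (SIY) in fusion with dsRED. In all groups the cells had received a lentiviral shRNA and been selected with puromycin as a stable line, in DMEM with 10% fetal calf serum. The groups were Decr2 shRNA2, Decr2 shRNA1 and Control shRNA, with 3 libraries each, numbered 0, 1 and 2 in the sample titles. The labels give a cultured cell line, although the title of the series mentions tumors, and each hairpin is described as a stable line. Whether the libraries of a line came from separate cultures is not stated, so the p-values measure only how these libraries vary, which may be technical variation.

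As background, the SLC22A5 transporter brings carnitine into the cell. CPT1 on the outer mitochondrial membrane joins a long-chain acyl group to carnitine, a step that malonyl-CoA inhibits, and CPT2 on the inner membrane hands the group back to coenzyme A. Acyl-CoA dehydrogenases graded by chain length then open each turn of beta oxidation, and for long chains the trifunctional protein completes it. Decr2, the gene the hairpins target, encodes a reductase for unsaturated fatty acids in peroxisomes, which have an oxidation pathway of their own.

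Values are the deposited log2 expression values, on which a difference of 1 is a doubling. Whether they were scaled by transcript length is unknown, so they are set side by side between groups and not between genes. Read depth is unknown. Decr2 stood at 0.84 to 1.55 in shRNA2, 2.51 to 3.18 in shRNA1 and 3.71 to 4.10 in control libraries, with no overlap between the groups. Of 11 melanocyte markers 10 were in the table, and of 30 markers of other cell types 5 were (Lck, Plvap, Col1a1, Pdgfrb and Postn). The log2 of the summed melanocyte markers ran from 13.95 to 14.81 in shRNA2, 13.93 to 14.55 in shRNA1 and 14.42 to 14.62 in control libraries. In bulk RNA, fewer cells of a kind and less RNA per cell cannot be told apart.

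In some members the library numbered 0 differed from the other libraries in the same direction in each group. Acadvl was higher in library 0 than in the mean of libraries 1 and 2 by 0.31 in shRNA2, 0.65 in shRNA1 and 0.38 in control, and Cpt1c by 0.50, 0.70 and 0.38 in the same groups. By the size of this difference averaged over the groups, Acadvl stood at percentile 88.8 and Cpt1c at percentile 92.1 of all genes, Slc22a5 at 16 and Acadl at 2.57. Differences of opposite sign cancel in this average, so a low percentile does not mean that library 0 was alike. For Acadl they were 0.054 in shRNA2, 0.10 in shRNA1 and -0.18 in control, and for Slc22a5 0.11, -0.089 and 0.12. Results are therefore also given without these 3 libraries, which leaves 2 a group, and with the replicate number as a block where that alters a call. The labels do not say that this number pairs libraries across groups.

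With each Decr2 hairpin, the carnitine transporter Slc22a5, the CPT1 isoform Cpt1c and the long-chain dehydrogenase Acadl rose, and no member passed the test in the downward direction. A gene was called at a limma adjusted p under 0.05, with Benjamini-Hochberg adjustment over all 10762 genes. With shRNA2, 3 of 10 members were called, where 12.9% of all genes were called, 7.27% higher and 5.67% lower. With shRNA1, the same 3 of 10 were called, against 12.4% of all genes, 6.92% higher and 5.49% lower. These 3 were called in the average of both hairpins as well, beside 17.6% of all genes (9.69% higher and 7.89% lower). The median log2 fold change of the 10 members was -0.022 with shRNA2 and 0.12 with shRNA1, beside 0.0046 with shRNA2 and 0.0018 with shRNA1 over all genes. An unadjusted p under 0.05 was reached by 5 of 10 members with shRNA2, where 29.3% of all genes reached it, and by 4 of 10 with shRNA1, where 28.7% of all genes did. Beyond the called members these were Cpt1a and Hadhb with shRNA2 and Cpt1a with shRNA1, all lower. Both comparisons share the control libraries.

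With the replicate block, 5 members were called with shRNA2, where 24% of all genes were, and the added genes were Cpt1a and Hadhb, both lower. The blocked fit called 4 members with shRNA1 (24.6% of all genes), adding Acadvl, and 5 in the average of both hairpins (30.3% of all genes), adding Acadvl and Cpt1a. Without the libraries numbered 0, 6 members were called with shRNA2 and 5 with shRNA1, while the share over all genes was 37.3% with shRNA2 and 34.5% with shRNA1. In the average of both hairpins 7 were called without these libraries, beside 41.4% of all genes. Slc22a5, Cpt1c and Acadl were among the called members in each of these fits. The libraries did not overlap control in 5 of 10 members with shRNA2, 3 higher and 2 lower, where 38.8% of all genes showed no overlap. The same held for 5 of 10 with shRNA1, 4 higher and 1 lower (33.9% of all genes), and for 4 of 10 over all 6 hairpin libraries, 3 higher and 1 lower (22.9% of all genes).

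**Figure D1:**
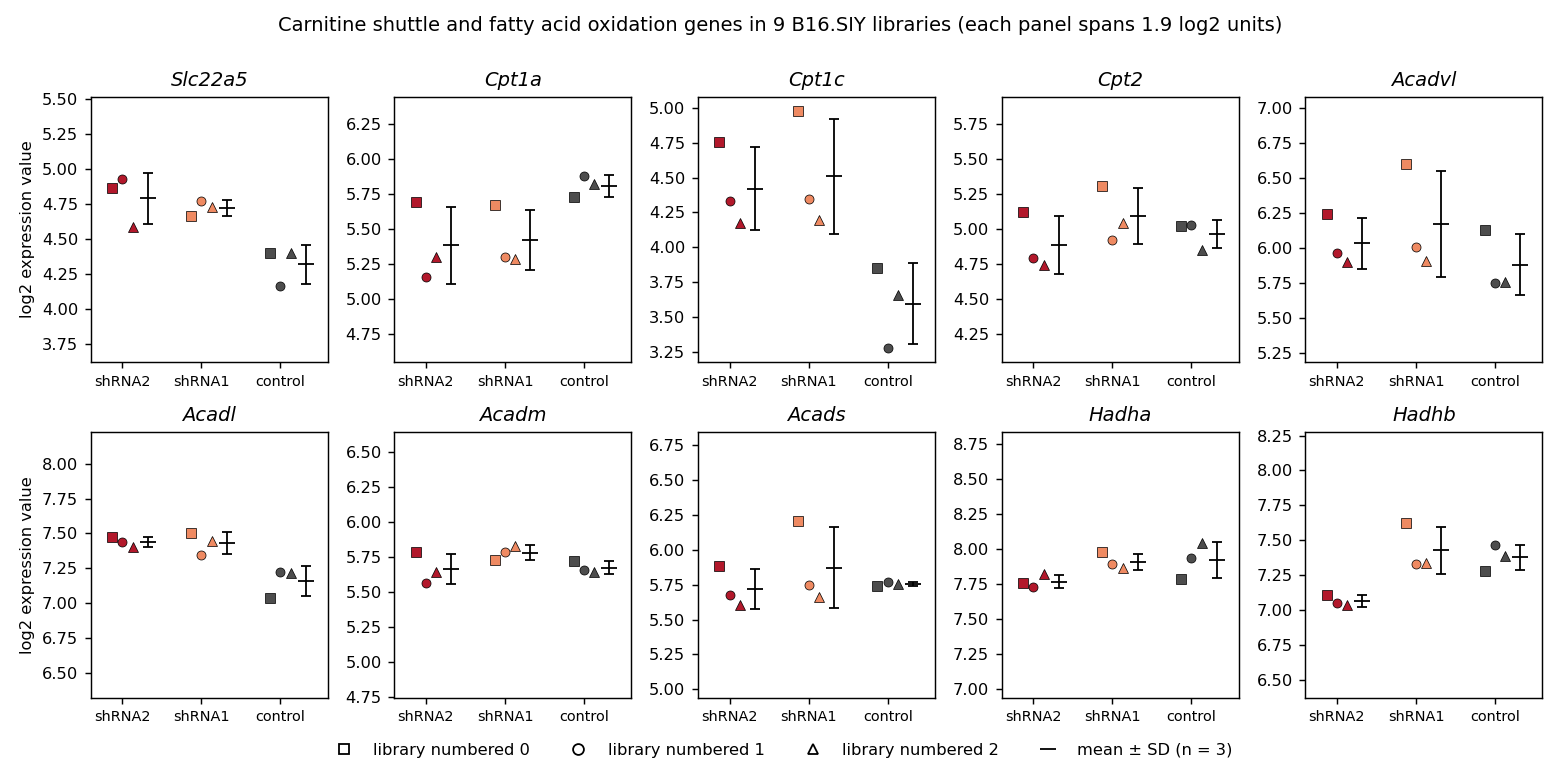
Log2 expression value of each of the 10 genes in the 9 libraries, by group from shRNA2 to control; the symbol shape gives the library number and the bar is the mean ± SD of 3 libraries. Slc22a5, Cpt1c and Acadl lie higher in all 6 hairpin libraries than in any control library, Cpt1a lies lower in all 6, and Hadhb lies lower in the 3 shRNA2 libraries than in all others.

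Promoter windows are shown for the 3 called members and for Cpt1a, the genes in which hairpin and control libraries did not overlap with either hairpin, and their values follow. All 10 members matched a RefSeq window on GRCm38.p6, 250 bases before to 50 after the start, and 5 motifs were searched on both strands. These RefSeq starts can differ from the GENCODE starts given for the genes below. The Cpt1a window lies inside the GENCODE gene, which starts at 3322334. GGGCGG (the GC box) was found in 8 of 10 member windows and in 35.7% of all 32851 windows of the same length. The match in Hadha is also a match in Hadhb, since their windows overlap. The set of all windows was not limited to genes of the table. CCAAT was found in Cpt1c and Cpt1a, 2 of 10, and in 37.4% of all windows. AAGGTCA, bound by nuclear receptors, was found in Acadm and in 4.72% of all windows. TGATGNAA, the C/EBP-ATF response element, was found in 0 of 10 members and 3.97% of all windows, and the direct repeat of PPAR with RXR, which is 2 copies of AGGTCA with 1 base N between them, in 0 of 10 and 0.0396%. This repeat can overlap a match of AAGGTCA. Capitals mark GGGCGG or CCAAT on either strand, and a match is a description of the letters. The windows are chr7:44974802-44975101 (minus strand) for Cpt1c, chr11:53891654-53891953 (minus strand) for Slc22a5, chr1:66863260-66863559 (minus strand) for Acadl and chr19:3323051-3323350 (plus strand) for Cpt1a.
Cpt1c: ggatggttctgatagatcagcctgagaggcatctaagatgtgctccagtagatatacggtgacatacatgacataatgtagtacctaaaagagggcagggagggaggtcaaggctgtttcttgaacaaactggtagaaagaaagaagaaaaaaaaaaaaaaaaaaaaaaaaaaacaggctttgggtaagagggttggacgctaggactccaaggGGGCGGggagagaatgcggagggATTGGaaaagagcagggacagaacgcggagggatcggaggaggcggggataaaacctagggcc
Slc22a5: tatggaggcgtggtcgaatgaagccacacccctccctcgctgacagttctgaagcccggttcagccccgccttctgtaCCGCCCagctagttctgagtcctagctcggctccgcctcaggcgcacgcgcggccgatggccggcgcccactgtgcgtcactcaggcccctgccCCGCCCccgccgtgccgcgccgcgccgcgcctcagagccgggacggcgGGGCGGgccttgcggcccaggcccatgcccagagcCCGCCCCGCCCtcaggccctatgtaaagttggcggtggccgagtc
Acadl: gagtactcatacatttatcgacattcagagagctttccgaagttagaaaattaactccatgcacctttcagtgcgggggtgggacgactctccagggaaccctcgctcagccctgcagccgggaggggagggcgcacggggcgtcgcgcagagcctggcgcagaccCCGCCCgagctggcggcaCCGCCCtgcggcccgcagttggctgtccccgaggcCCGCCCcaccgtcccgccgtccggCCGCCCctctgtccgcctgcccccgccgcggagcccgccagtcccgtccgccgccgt
Cpt1a: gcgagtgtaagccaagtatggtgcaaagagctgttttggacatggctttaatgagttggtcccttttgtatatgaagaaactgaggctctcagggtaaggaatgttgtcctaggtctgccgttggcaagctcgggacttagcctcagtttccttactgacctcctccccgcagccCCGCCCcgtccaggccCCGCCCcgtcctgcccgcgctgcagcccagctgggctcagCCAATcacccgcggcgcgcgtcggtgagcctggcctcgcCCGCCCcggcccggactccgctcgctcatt

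Slc22a5 encodes the sodium-dependent carnitine transporter OCTN2 and is a protein-coding gene (chromosome 11, minus strand, 53864542 to 53891660 in GRCm38, GENCODE M21, the build of all gene positions given here). Its log2 value was 4.86, 4.93 and 4.58 in shRNA2 libraries, 4.66, 4.77 and 4.73 in shRNA1 libraries, and 4.40, 4.16 and 4.40 in control libraries. Every hairpin library lay above every control library, and the hairpin groups overlapped each other. Slc22a5 rose 1.39-fold with shRNA2 (log2 fold change 0.47, SE 0.11, limma adjusted p = 0.0278) and 1.32-fold with shRNA1 (0.40, SE 0.11, adjusted p = 0.048). With the libraries numbered 0 left out the log2 fold change was 0.48 with shRNA2 (limma adjusted p = 0.0186) and 0.47 with shRNA1 (adjusted p = 0.0212). A close paralog, Slc22a21, stood at 0.28 to 1.52 in shRNA2, 0.80 to 2.01 in shRNA1 and 0.56 to 1.22 in control libraries. By its mean level Slc22a21 lay at percentile 1.37 of all genes, near the floor. The sources used here do not say how the authors' counting divided reads between near-identical stretches of the paralogs.

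The CPT1 isoforms differed from each other: Cpt1c rose, while Cpt1a stood below control in all 6 hairpin libraries without passing the test. CPT1A is the widespread isoform of the outer mitochondrial membrane, and CPT1C is an isoform best known from neurons, where it sits in the endoplasmic reticulum and has little transferase activity. Cpt1c (chromosome 7, minus strand, 44959372 to 44974851) had log2 values of 4.75, 4.33 and 4.18 in shRNA2 libraries, 4.98, 4.35 and 4.20 in shRNA1 libraries, and 3.85, 3.28 and 3.66 in control libraries. Each hairpin group lay above control, the hairpin groups overlapped each other, and library 0 was the highest of each group. Cpt1c rose 1.77-fold with shRNA2 (log2 fold change 0.82, SE 0.23, limma adjusted p = 0.0495) and 1.88-fold with shRNA1 (0.91, SE 0.23, adjusted p = 0.0365), the largest log2 fold changes among the 10 members. In the fit without libraries 0 they were 0.78 with shRNA2 (limma adjusted p = 0.00314) and 0.80 with shRNA1 (adjusted p = 0.00312). An antisense gene, 6530437J22Rik, overlaps Cpt1c in GENCODE M21 and had no row in the table, and the sources used here do not say whether the counting used strand.

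Cpt1a (chromosome 19, plus strand, 3322334 to 3385733) had log2 values of 5.70, 5.16 and 5.30 in shRNA2 libraries, 5.67, 5.30 and 5.29 in shRNA1 libraries, and 5.73, 5.88 and 5.82 in control libraries. All 6 hairpin libraries lay below the control libraries, and in each hairpin group library 0 was the closest to them. The log2 fold change was -0.43 with shRNA2 (SE 0.15, limma adjusted p = 0.0946) and -0.39 with shRNA1 (SE 0.15, adjusted p = 0.124), so Cpt1a was not called. With the replicate block it was called with shRNA2 (limma adjusted p = 0.0377) and in the average of both hairpins (adjusted p = 0.0215), and it missed the threshold with shRNA1 (adjusted p = 0.0501). Without the libraries numbered 0 it was called with both, at -0.62 with shRNA2 (limma adjusted p = 0.000528) and -0.56 with shRNA1 (adjusted p = 0.000939).

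Subtracting the log2 value of Cpt1a from that of Cpt1c in the same library gave -0.94, -0.82 and -1.13 in shRNA2 libraries, -0.70, -0.96 and -1.09 in shRNA1 libraries, and -1.88, -2.60 and -2.16 in control libraries. All 6 hairpin libraries lay above the control libraries. This had to follow from Cpt1c lying above and Cpt1a below control in all 6, so it is no further evidence. The mean difference was -0.96 ± 0.15 with shRNA2, -0.91 ± 0.20 with shRNA1 and -2.21 ± 0.37 with the control hairpin (SD, n = 3 each). It was thus 1.25 log2 units higher with shRNA2 than in control, and 1.30 higher with shRNA1, a description without a test of its own. The isoform known from muscle, Cpt1b, stood at -0.26 to 1.66 in shRNA2, 0.67 to 1.09 in shRNA1 and -1.02 to 1.09 in control libraries, with all 3 groups overlapping. By its mean level Cpt1b lay at percentile 0.23 of all genes, near the floor, so this overlap says little about it.

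**Figure D2:**
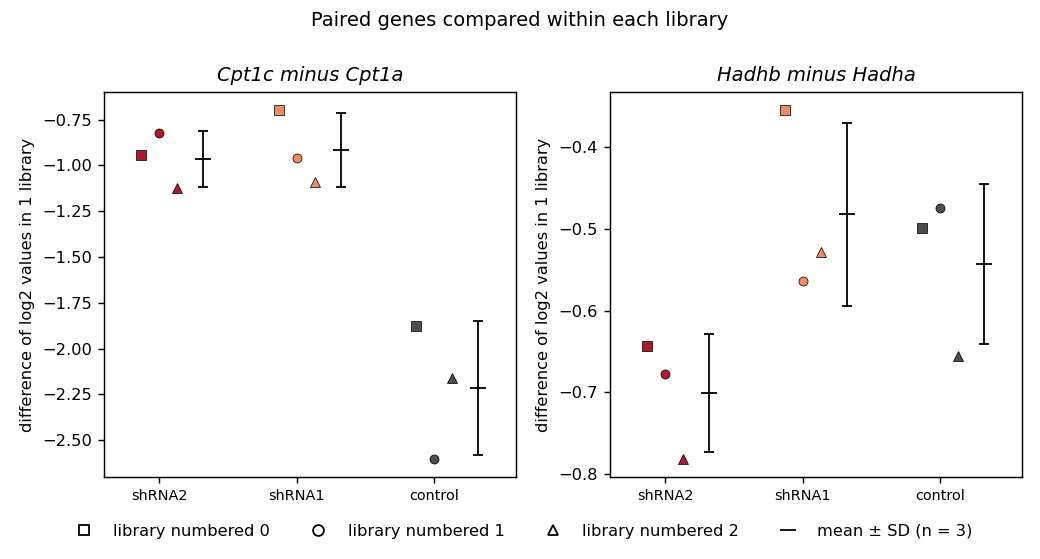
Difference between the log2 values of 2 genes in the same library, Cpt1c minus Cpt1a at left and Hadhb minus Hadha at right, by group from shRNA2 to control; the symbol shape gives the library number and the bar is the mean ± SD of 3 libraries. Cpt1c minus Cpt1a averages -0.96 with shRNA2, -0.91 with shRNA1 and -2.21 in control, and for Hadhb minus Hadha the shRNA2 and control libraries overlap.

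Cpt2, which hands the acyl group back to coenzyme A, had log2 values of 5.12, 4.79 and 4.74 in shRNA2 libraries, 5.31, 4.92 and 5.04 in shRNA1 libraries, and 5.02, 5.03 and 4.85 in control libraries. The groups overlapped. Its log2 fold change was -0.080 with shRNA2 (95% interval -0.38 to 0.22) and 0.13 with shRNA1 (-0.17 to 0.42). Slc25a20, the carrier that moves acylcarnitine across the inner membrane between CPT1 and CPT2, stood at 5.16 to 5.23 in shRNA2, 5.05 to 5.29 in shRNA1 and 5.14 to 5.32 in control libraries, with all 3 groups overlapping.

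Among the acyl-CoA dehydrogenases, Acadl rose and the others were not called. Acadl (chromosome 1, minus strand, 66830839 to 66863277) encodes the long-chain enzyme. It had log2 values of 7.47, 7.44 and 7.40 in shRNA2 libraries, 7.50, 7.34 and 7.45 in shRNA1 libraries, and 7.04, 7.22 and 7.22 in control libraries. All hairpin libraries lay above control, the hairpin groups overlapped each other, and control library 0 was the lowest of the 9. Acadl rose 1.21-fold with shRNA2 (log2 fold change 0.28, SE 0.077, limma adjusted p = 0.0449) and 1.21-fold with shRNA1 (0.27, SE 0.077, adjusted p = 0.0494). Leaving out the libraries numbered 0 gave a log2 fold change of 0.20 with shRNA2 (limma adjusted p = 0.0228) and 0.18 with shRNA1 (adjusted p = 0.0395). Acadl varied little, with a pooled SD within groups of 0.079 log2 units, against 0.34 for Cpt1c and 0.16 for the median gene. A processed pseudogene, Gm15793, overlaps it on the same strand and had no row in the table.

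Acadvl encodes the very-long-chain enzyme of the inner membrane and had log2 values of 6.24, 5.96 and 5.90 in shRNA2 libraries, 6.60, 6.00 and 5.90 in shRNA1 libraries, and 6.13, 5.75 and 5.76 in control libraries. In each group library 0 was the highest, and the groups overlapped. The log2 fold change was 0.16 with shRNA2 (SE 0.19, limma adjusted p = 0.639) and 0.29 with shRNA1 (SE 0.19, adjusted p = 0.343). Acadvl was called in the blocked fit with shRNA1 (limma adjusted p = 0.0375) and in the average of both hairpins (adjusted p = 0.0493). It was also called with shRNA1 without the libraries numbered 0 (0.20, limma adjusted p = 0.0427). Dvl2, a Wnt pathway gene that overlaps Acadvl on the other strand, stood at 5.02 to 5.05 in shRNA2, 5.02 to 5.11 in shRNA1 and 4.99 to 5.16 in control libraries.

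Acadm, the medium-chain enzyme, had log2 values of 5.78, 5.57 and 5.64 in shRNA2 libraries, 5.73, 5.78 and 5.83 in shRNA1 libraries, and 5.72, 5.65 and 5.64 in control libraries. The shRNA1 libraries lay above control and the shRNA2 libraries overlapped it. The log2 fold change was -0.0094 with shRNA2 (95% interval -0.18 to 0.17) and 0.11 with shRNA1 (-0.067 to 0.28). Acads, the short-chain enzyme, had log2 values of 5.88, 5.68 and 5.60 in shRNA2 libraries, 6.21, 5.75 and 5.66 in shRNA1 libraries, and 5.74, 5.77 and 5.75 in control libraries. Its control libraries lay inside the range of each hairpin group, and in each hairpin group library 0 was the highest. The log2 fold change of Acads was -0.035 with shRNA2 (95% interval -0.35 to 0.27) and 0.12 with shRNA1 (-0.19 to 0.43). For Acadm and Acads, changes within these intervals are not excluded. With 3 libraries a group, larger changes could also have gone uncalled.

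**Figure D3:**
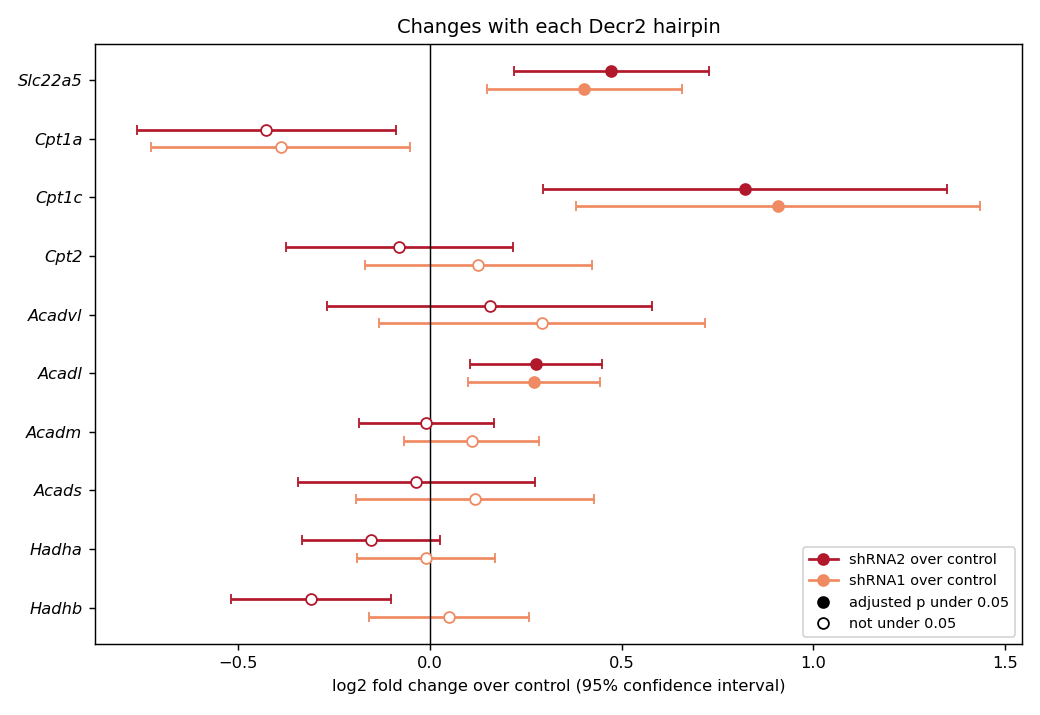
Log2 fold change over control with 95% confidence intervals from limma, for shRNA2 (upper symbol of each gene) and shRNA1 (lower symbol); filled circles have an adjusted p under 0.05. Slc22a5, Cpt1c and Acadl are filled for both hairpins, Cpt1a lies at -0.43 and -0.39 without passing, and Hadhb lies at -0.31 with shRNA2 and 0.050 with shRNA1.

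Hadha encodes the alpha subunit of the trifunctional protein, with the enoyl-CoA hydratase and hydroxyacyl-CoA dehydrogenase activities, and Hadhb the beta subunit, a thiolase. The genes lie head to head on chromosome 5. In GENCODE, Hadha is on the minus strand from 30118304 to 30155162 and Hadhb on the plus strand from 30155248 to 30184593. These positions leave 85 bases between their starts. Their promoter windows, 250 bases before to 50 after the start in RefSeq on GRCm38.p6, are shown because they overlap. The RefSeq starts differ from the GENCODE starts. The part of the Hadha window up to 30155162 lies inside the GENCODE gene. The window of Hadha is chr5:30154931-30155230 (minus strand) and that of Hadhb is chr5:30155003-30155302 (plus strand). Capitals mark the 228 bases that both windows hold, from 30155003 to 30155230, which read as the reverse complement of each other.
Hadha: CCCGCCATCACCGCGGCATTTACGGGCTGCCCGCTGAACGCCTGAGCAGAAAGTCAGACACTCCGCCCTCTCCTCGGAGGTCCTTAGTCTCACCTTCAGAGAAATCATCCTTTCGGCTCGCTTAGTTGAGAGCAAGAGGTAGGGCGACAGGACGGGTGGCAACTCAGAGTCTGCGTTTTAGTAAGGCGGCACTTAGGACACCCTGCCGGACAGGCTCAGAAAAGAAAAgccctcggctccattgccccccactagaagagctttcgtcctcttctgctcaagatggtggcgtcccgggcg
Hadhb: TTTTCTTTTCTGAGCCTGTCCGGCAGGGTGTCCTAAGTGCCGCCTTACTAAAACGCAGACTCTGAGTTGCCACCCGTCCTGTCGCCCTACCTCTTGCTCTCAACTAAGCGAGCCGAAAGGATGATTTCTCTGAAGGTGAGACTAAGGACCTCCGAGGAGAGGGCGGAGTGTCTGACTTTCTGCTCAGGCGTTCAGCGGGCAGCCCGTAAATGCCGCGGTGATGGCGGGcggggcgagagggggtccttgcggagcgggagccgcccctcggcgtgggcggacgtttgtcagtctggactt

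Hadhb had log2 values of 7.11, 7.05 and 7.04 in shRNA2 libraries, 7.62, 7.33 and 7.34 in shRNA1 libraries, and 7.28, 7.47 and 7.39 in control libraries. The shRNA2 libraries lay below all others, and the shRNA1 and control libraries overlapped. The log2 fold change of Hadhb was -0.31 with shRNA2 (SE 0.093, limma adjusted p = 0.0569) and 0.050 with shRNA1 (SE 0.093, adjusted p = 0.764). The replicate block gave a call of Hadhb with shRNA2 (limma adjusted p = 0.0376), as it was without the libraries numbered 0 (-0.38, adjusted p = 0.00103).

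Hadha, its partner across the shared window, had log2 values of 7.76, 7.73 and 7.82 in shRNA2 libraries, 7.98, 7.89 and 7.87 in shRNA1 libraries, and 7.78, 7.94 and 8.04 in control libraries. The shRNA2 libraries lay below the shRNA1 libraries and overlapped control through control library 0. Its log2 fold change was -0.15 with shRNA2 (SE 0.080, limma adjusted p = 0.239) and -0.011 with shRNA1 (SE 0.080, adjusted p = 0.945). Without the libraries numbered 0 it was called with shRNA2 (-0.22, limma adjusted p = 0.0186). The difference of Hadhb minus Hadha within a library averaged -0.70 ± 0.072 with shRNA2, -0.48 ± 0.11 with shRNA1 and -0.54 ± 0.098 in control (SD, n = 3 each).

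Set against shRNA1, shRNA2 gave no call among the 10 members by limma, where 0.455% of all genes were called, and 1 of 10 members, Hadhb, had an unadjusted p under 0.05, as did 10% of all genes. The log2 difference of Hadhb was -0.36 (SE 0.093, unadjusted p = 0.0034, limma adjusted p = 0.182), and it was not called with the replicate block (adjusted p = 0.0915, 1.87% of all genes called). It was called without the libraries numbered 0 (-0.29, limma adjusted p = 0.0135), where 8.87% of all genes were. In 2 of 10 members, Hadha and Hadhb, every shRNA2 library lay below every shRNA1 library, and 14.4% of all genes had no overlap in either direction. For the members called with both hairpins, the lines differed by 0.071 in Slc22a5 (95% interval -0.18 to 0.32), -0.086 in Cpt1c (-0.61 to 0.44) and 0.0075 in Acadl (-0.16 to 0.18). Decr2 differed by -1.66 between the lines (SE 0.23, limma adjusted p = 0.0233), a call that held in 2 of the 9 fits that leave out 1 library. Against control, Decr2 was called lower in 9 of 9 such fits with shRNA2 and 6 of 9 with shRNA1.

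The calls of Slc22a5, Cpt1c and Acadl lay near the threshold. When each of the 9 libraries was left out in turn, Slc22a5 was called in 5 of 9 fits with shRNA2 and 2 of 9 with shRNA1. Cpt1c was called in 1 with shRNA2 and 4 with shRNA1, and Acadl in 1 and 0. In the average of both hairpins Slc22a5 was called in 7 of 9 fits, Cpt1c in 7 and Acadl in 6. Without control replicate 1, and likewise without control replicate 2, none of the 10 members was called with either hairpin or in their average. The share called over all genes was then 3.88% with shRNA2, 3.15% with shRNA1 and 5.72% in the average without control replicate 1, and 3.77% with shRNA2, 3.05% with shRNA1 and 5.86% in the average without control replicate 2. The log2 fold changes with shRNA2 ran from 0.39 to 0.58 for Slc22a5, 0.66 to 0.95 for Cpt1c and 0.22 to 0.31 for Acadl over these fits. With shRNA1 they ran from 0.32 to 0.44, 0.67 to 1.06 and 0.21 to 0.31 for the same genes. In the authors' deposited table each of these genes had an adjusted p under 0.05 with 1 hairpin, Slc22a5 with shRNA2 (0.0315, and 0.0568 with shRNA1), Acadl with shRNA2 (0.0474, and 0.0521 with shRNA1) and Cpt1c with shRNA1 (0.0493, and 0.0689 with shRNA2).

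**Figure D4:**
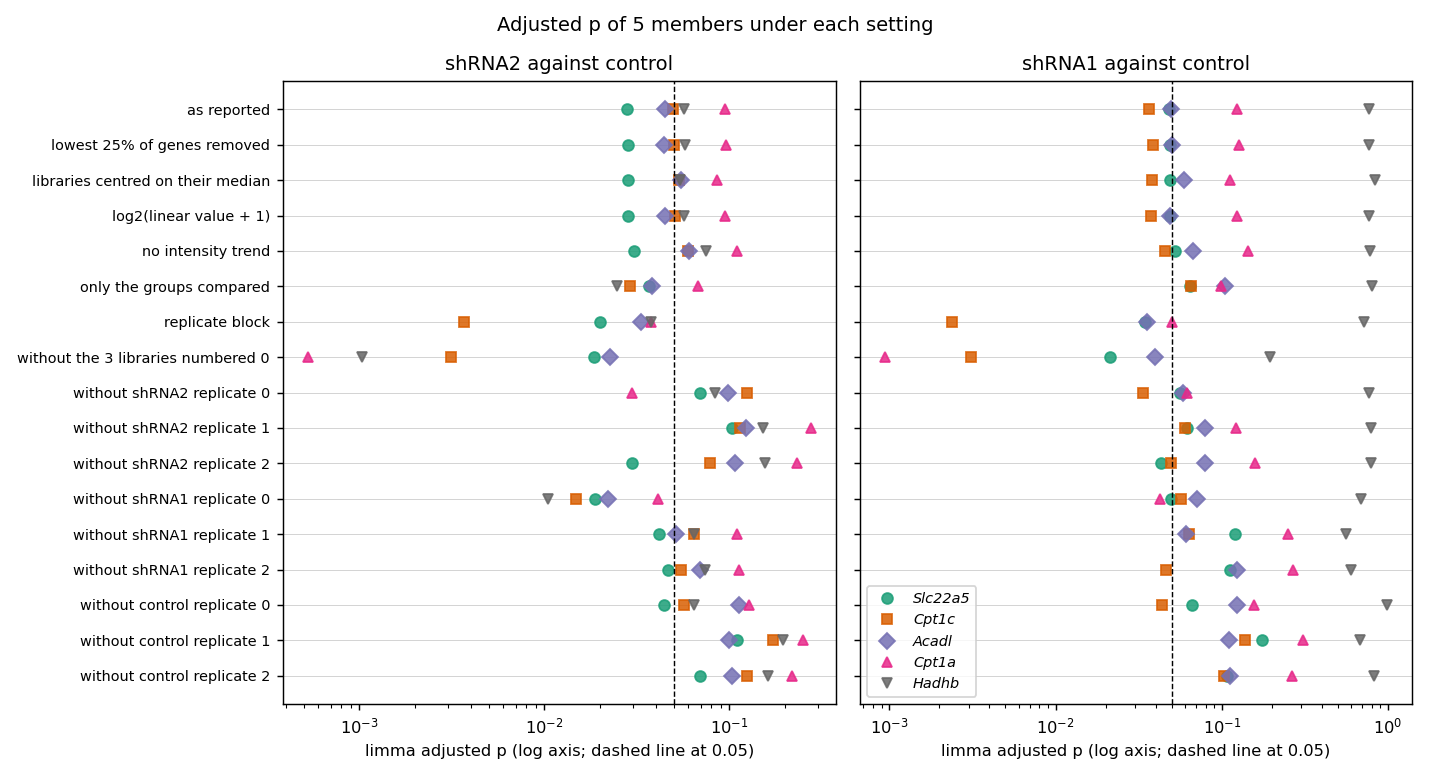
Limma adjusted p on a log axis for Slc22a5, Cpt1c, Acadl, Cpt1a and Hadhb, with 1 row for each processing setting, for shRNA2 against control at left and shRNA1 against control at right; the dashed line is at 0.05. Without control replicate 1 or control replicate 2 all 5 genes lie right of the line in both panels, and without the libraries numbered 0 Cpt1a lies at 0.000528 with shRNA2 and 0.000939 with shRNA1.

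The other genes of the pathway were followed in 6 lists, whose genes were read off the same limma fit. That fit called 12.9% of all genes with shRNA2, 12.4% with shRNA1 and 17.6% in the average of both hairpins. An unadjusted p under 0.05 was found for 29.3% of all genes with shRNA2 and 28.7% with shRNA1. Between the lines, 0 of the 62 listed genes in the table were called, and 7 had an unadjusted p under 0.05, beside 10% of all genes. Of 11 other carnitine shuttle genes 6 were in the table, 1 of which rose with shRNA2 and 0 with shRNA1 (0 at an unadjusted p under 0.05). The list's median log2 fold change was -0.0093 with shRNA2 and -0.027 with shRNA1. The gene that rose was Crot, the carnitine octanoyltransferase of peroxisomes, with log2 values of 6.16, 6.28 and 6.10 in shRNA2 libraries, 5.87, 5.80 and 5.83 in shRNA1 libraries, and 5.87, 5.87 and 5.92 in control libraries. Its shRNA2 libraries lay above all others. Crot rose by 0.29 with shRNA2 (SE 0.071, limma adjusted p = 0.0296) and stood at -0.056 with shRNA1 (adjusted p = 0.638), and the difference between the lines was 0.35 (adjusted p = 0.0909).

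Of 16 other enzymes of matrix beta oxidation and acyl-CoA handling, all in the table, 1 rose and 0 fell with each hairpin. The shares of all genes called were 12.9% with shRNA2 and 12.4% with shRNA1. At an unadjusted p under 0.05, 0 of the list were lower with shRNA2 and 1 with shRNA1. Median log2 fold changes of the list were 0.071 with shRNA2 and 0.10 with shRNA1. Acot2, a mitochondrial acyl-CoA thioesterase, had log2 values of 4.42, 4.96 and 5.03 in shRNA2 libraries, 4.22, 4.43 and 4.47 in shRNA1 libraries, and 3.98, 4.08 and 4.18 in control libraries. Both hairpin groups lay above control. Acot2 rose by 0.72 with shRNA2 (SE 0.16, limma adjusted p = 0.0212) and stood at 0.30 with shRNA1 (adjusted p = 0.253). Echs1, the short-chain enoyl-CoA hydratase, rose by 0.31 with shRNA1 (SE 0.082, limma adjusted p = 0.0407) and stood at 0.019 with shRNA2 (adjusted p = 0.908). The differences between the lines were 0.42 for Acot2 and -0.29 for Echs1 (limma adjusted p = 0.405 and 0.219). Blocking on the replicate number, this list had 3 calls of 16 with shRNA1, 2 higher and 1 lower, where 24.6% of all genes were called. The fit without libraries 0 gave it 5 of 16 with shRNA2, 2 of them higher, where 37.3% of all genes were called, and 4 of 16 with shRNA1, 3 of them higher, where 34.5% of all genes were. Over the 9 fits that leave out 1 library, Acot2 was called in 4 with shRNA2, Echs1 in 3 with shRNA1 and Crot, of the shuttle list, in 2 with shRNA2.

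Of 8 other acyl-CoA dehydrogenases, all in the table, none was called with a single hairpin by limma, and at an unadjusted p under 0.05 3 were higher and 1 lower with shRNA2, and 2 higher and 1 lower with shRNA1. In the average of both hairpins 1 rose and 1 fell, where 17.6% of all genes were called. Acadsb, which acts on short branched chains, rose by 0.35 (SE 0.10, limma adjusted p = 0.0467), with log2 values of 6.04, 6.22 and 6.31 in shRNA2 libraries, 5.97, 6.33 and 6.38 in shRNA1 libraries, and 5.78, 5.87 and 5.94 in control libraries. Acad9, known for its role in assembling respiratory complex I, fell by 0.20 (SE 0.059, limma adjusted p = 0.0495), with log2 values of 5.78, 5.71 and 5.78 in shRNA2 libraries, 5.80, 5.67 and 5.75 in shRNA1 libraries, and 5.90, 5.96 and 5.97 in control libraries. In both genes the hairpin libraries did not overlap control. With the replicate block Acadsb was also called with each hairpin (limma adjusted p = 0.0151 with shRNA2 and 0.0098 with shRNA1), and the list had 2 of 8 called with shRNA2 and 3 of 8 with shRNA1, all higher, beside 24% of all genes with shRNA2 and 24.6% with shRNA1. Without the libraries numbered 0 Acad9 was called lower with shRNA2 (limma adjusted p = 0.027) and shRNA1 (adjusted p = 0.0156), and Acadsb higher with both. When 1 library at a time was left out, the call in the average held in 2 of 9 fits for Acadsb and 1 of 9 for Acad9. The median of the list was 0.055 with shRNA2 and 0.24 with shRNA1.

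Acyl-CoA dehydrogenases are FAD enzymes that pass electrons to the electron transfer flavoprotein (ETF). Of 10 genes of ETF and flavin supply 9 were in the table, and 3 rose and 1 fell with shRNA2, while 3 rose and 0 fell with shRNA1 (1 lower at an unadjusted p under 0.05). Over all genes, 12.9% were called with shRNA2 and 12.4% with shRNA1. The list's median log2 fold change was 0.14 with shRNA2 and 0.074 with shRNA1. Its calls were the same genes with the replicate block and without the libraries numbered 0. The shares of all genes called were 24% with shRNA2 and 24.6% with shRNA1 in the blocked fit. They were 37.3% with shRNA2 and 34.5% with shRNA1 without the libraries numbered 0. With 1 library left out the number called in the list ran from 1 to 4 with shRNA2 and from 0 to 2 with shRNA1. The share over all genes in those fits ran from 3.77 to 22.8% with shRNA2 and 3.05 to 14.7% with shRNA1. Of these 9 fits, 9 called Rfk with shRNA2 and 0 with shRNA1, 5 called Etfrf1 with shRNA2 and 6 with shRNA1, 3 called Etfbkmt with shRNA2 and 6 with shRNA1, and 2 called Slc25a32 with shRNA2. Rfk, the riboflavin kinase at the start of FAD synthesis, had log2 values of 6.19, 6.01 and 6.18 in shRNA2 libraries, 5.82, 5.71 and 5.88 in shRNA1 libraries, and 5.53, 5.58 and 5.33 in control libraries. The 3 groups did not overlap. Rfk rose by 0.65 with shRNA2 (SE 0.093, limma adjusted p = 0.00473) and 0.33 with shRNA1 (SE 0.093, adjusted p = 0.0497), and the lines differed by 0.32 (adjusted p = 0.229).

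Etfrf1, a small protein that binds ETF, rose by 0.64 with shRNA2 (SE 0.14, limma adjusted p = 0.0203) and 0.62 with shRNA1 (SE 0.14, adjusted p = 0.0238). Etfbkmt, the methyltransferase of the ETF beta subunit, rose by 0.67 with shRNA2 (SE 0.18, limma adjusted p = 0.0433) and 0.79 with shRNA1 (SE 0.18, adjusted p = 0.0252). Slc25a32, a mitochondrial carrier linked to folate and FAD transport, fell by 0.33 with shRNA2 (SE 0.086, limma adjusted p = 0.0396) and stood at -0.22 with shRNA1 (adjusted p = 0.139). The ETF subunits Etfa and Etfb and their dehydrogenase Etfdh were not called. Etfa stood at 7.18 to 7.33 in shRNA2, 7.16 to 7.41 in shRNA1 and 7.06 to 7.22 in control libraries.

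**Figure D5:**
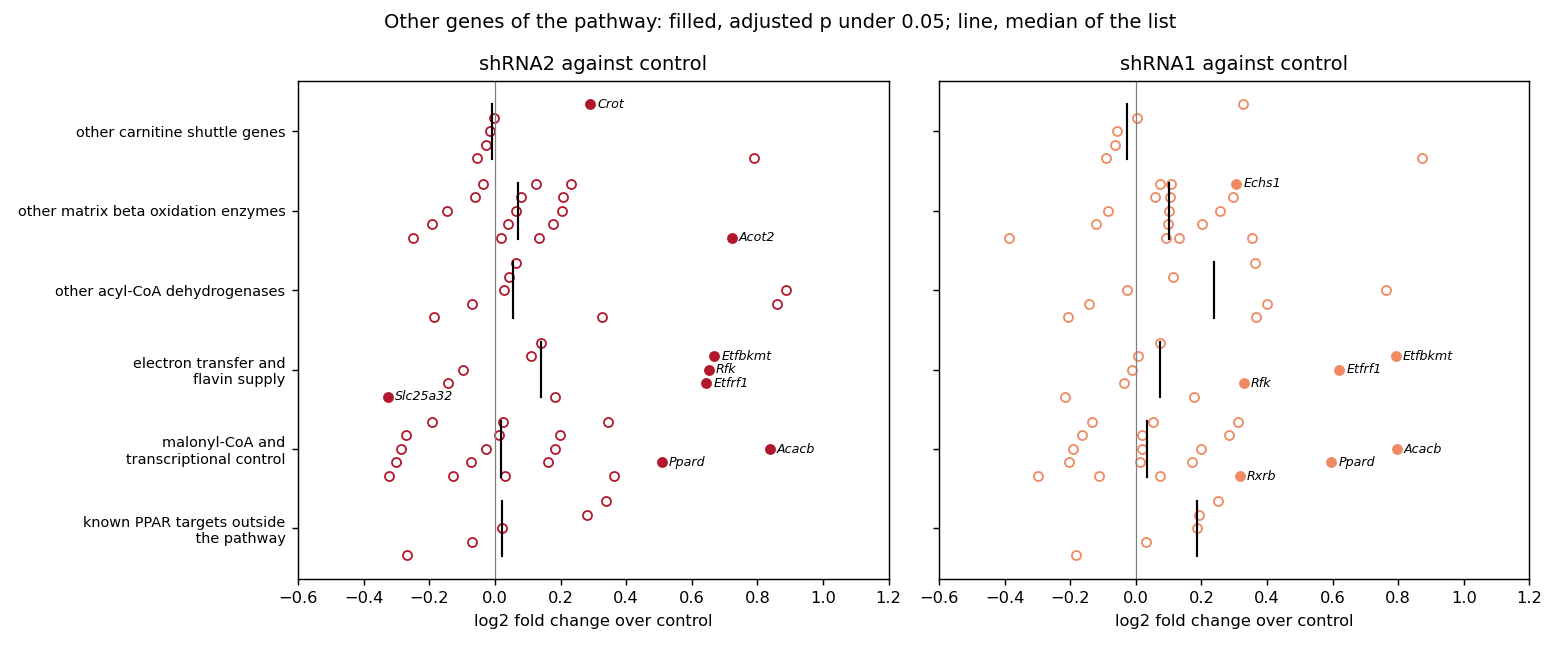
Log2 fold change over control of every measured gene of the 6 lists, for shRNA2 at left and shRNA1 at right; filled and named circles have a limma adjusted p under 0.05, and the black line is the median of the list. The list medians lie between -0.027 and 0.24, and Acacb, Etfbkmt, Etfrf1, Rfk and Ppard are named in both panels.

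Of 20 genes of malonyl-CoA and transcriptional control 18 were in the table, and Ppara and Pparg had no row in it. In this list 2 rose with shRNA2, 3 rose with shRNA1 and 0 fell with either. The shares of all genes called were 12.9% with shRNA2 and 12.4% with shRNA1. At an unadjusted p under 0.05, 3 of the list were lower with shRNA2 and 1 with shRNA1. Median log2 fold changes of the list were 0.019 with shRNA2 and 0.036 with shRNA1. Acacb, the acetyl-CoA carboxylase at the mitochondrial surface whose product malonyl-CoA inhibits CPT1, had log2 values of 3.57, 3.25 and 3.65 in shRNA2 libraries, 3.59, 3.24 and 3.52 in shRNA1 libraries, and 2.84, 2.28 and 2.84 in control libraries. All hairpin libraries lay above control. Acacb rose by 0.84 with shRNA2 (SE 0.19, limma adjusted p = 0.0224) and 0.80 with shRNA1 (SE 0.19, adjusted p = 0.0269). The cytosolic carboxylase Acaca stood at 7.18 to 7.26 in shRNA2, 7.11 to 7.43 in shRNA1 and 7.38 to 7.61 in control libraries and was not called. It was called lower with shRNA2 with the replicate block, when only the groups compared were fitted, and without the libraries numbered 0.

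Ppard, a nuclear receptor known for inducing oxidation genes in muscle, had log2 values of 6.28, 5.74 and 5.89 in shRNA2 libraries, 6.14, 5.88 and 6.15 in shRNA1 libraries, and 5.52, 5.37 and 5.49 in control libraries. Again the hairpin libraries all lay above control. Ppard rose by 0.51 with shRNA2 (SE 0.14, limma adjusted p = 0.0419) and 0.60 with shRNA1 (SE 0.14, adjusted p = 0.025). Rxrb, a receptor that pairs with PPARs, rose by 0.32 with shRNA1 (SE 0.089, limma adjusted p = 0.0485) and stood at 0.20 with shRNA2 (adjusted p = 0.177). With the replicate block 4 of 18 genes of the list were called with shRNA2, 2 higher and 2 lower (Acaca and Prkaa1, a catalytic subunit of AMP-activated kinase), beside 24% of all genes. Without the libraries numbered 0 6 of 18 were, 2 higher and 4 lower, beside 37.3% of all genes. Over the fits that leave out 1 library, Acacb was called in 5 of 9 with shRNA2 and 6 with shRNA1, Ppard in 3 with shRNA2 and 6 with shRNA1, and Rxrb in 1 with shRNA1.

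Of 14 known PPAR targets outside the pathway 5 were in the table, and by limma 0 were called with either hairpin. An unadjusted p under 0.05 was reached by 2 with shRNA2 and 0 with shRNA1, beside 29.3% and 28.7% of all genes. The smallest p belonged to Acsl1, a long-chain acyl-CoA synthetase, with log2 values of 4.72, 4.52 and 4.75 in shRNA2 libraries, 4.63, 4.55 and 4.53 in shRNA1 libraries, and 4.56, 4.18 and 4.23 in control libraries. Its log2 fold change was 0.34 with shRNA2 (SE 0.12, limma adjusted p = 0.0925) and 0.25 with shRNA1 (SE 0.12, adjusted p = 0.197). Acsl1 was called higher with shRNA2 in the blocked fit (limma adjusted p = 0.0354). There 2 of 5 genes of the list were called, 1 higher and 1 lower (Plin2), beside 24% of all genes. Without the libraries numbered 0, 3 of 5 were called with shRNA2, 2 higher and 1 lower (Plin2), beside 37.3% of all genes. The list's median was 0.021 with shRNA2 and 0.19 with shRNA1.

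For Cpt1a and Hadha, the genes with the most similar profile were sought among 5380 genes at or above the median level, by the root mean square difference between log2 profiles over the 9 libraries, each centred on its own mean. Nearest to Cpt1a were Eno1 (0.078), a glycolytic enolase, Hacd3 (0.083), an enzyme of very-long-chain fatty acid elongation, and Sept9 (0.085), a septin. The median gene was at 0.29 from Cpt1a. Of the other members, Hadhb (0.22), Hadha (0.23), Cpt2 (0.23), Acads (0.24) and Acadm (0.27) were nearer than that. Acadvl (0.35), Acadl (0.35), Slc22a5 (0.46) and Cpt1c (0.64) were farther. Cpt2, Slc22a5 and Cpt1c lay below the median level and were not among the 5380 genes. Nearest to Hadha were Ehbp1l1 (0.041), Lrp5 (0.050) and Plxnb2 (0.051), with the median gene at 0.18. Hadhb was at 0.12, rank 769 of 5380. All these profiles come from the same 9 libraries.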

How the data were processed

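RNA-seq values of 9 mouse libraries were analysed, 3 each of Decr2 shRNA2, Decr2 shRNA1 and Control shRNA. The deposited table holds log2 expression values per gene and library, and the authors' log2 fold change and adjusted p-value for each hairpin, per the file headers. Per the submitters' processing notes, FastQC, kallisto and limma were used, with no version given. The sources used here do not give the genome build, annotation, strand setting or filters. Fold changes in the deposited table matched the library columns of the hairpin named in its header within 0.05 log2 for 99.7% of genes with shRNA2 and 99.95% with shRNA1, which linked columns to hairpins. Every column of values was linked to a library. Read depth is unknown, so precision is given by the spread between libraries. Symbols were matched for 10759 of 10762 IDs, and Mmut was found under its older symbol Mut.

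Group means of all 9 libraries were fitted with limma 3.58.1 in R 4.3.3 (intensity trend in the variance prior, 6 residual degrees of freedom and 3.30 prior), with 4 contrasts and Benjamini-Hochberg adjustment over all genes, and calls at an adjusted p under 0.05. Log2 fold changes are the first-named group minus the second. The fit was tested on simulated data with independent noise and changes only in genes above the median level. That test does not cover genes of lower level, such as Cpt1c, or deviations that libraries share. The replicate block took the replicate numbers to pair libraries across groups, which the labels do not state. Deviations from the group means correlated at 0.173 to 0.706 in the 9 pairs with the same number. In 18 pairs with other numbers they correlated at -0.755 to 0.669. Libraries 1 and 2 of different groups also correlated positively, at 0.274 to 0.669. These values set library 0 apart and do not show that numbers 1 and 2 pair libraries. Alternatives were removal of the lowest 25% of genes, centring on library medians, a pseudocount of 1, no trend, only the groups compared, the replicate block, leaving out the 3 libraries numbered 0, and leaving out each library.

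The members and lists were chosen with earlier results of these data known. Named were all members, Decr2, and from each list up to 4 genes that passed in any comparison, or the one with the smallest p. Cpt1b, Slc25a20, Slc22a21, Dvl2, Acaca, Prkaa1, Plin2, Etfa, Etfb and Etfdh fall outside this rule and were added after their values were seen, as were the within-library differences. Gene positions are from GENCODE M21 and promoter sequences from RefSeq.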

Additional observations from a re-analysis of the deposited data

Results flagged for a closer look

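The effect of shRNA2 on Decr2, the targeted gene, differed from that of shRNA1 by a log2 difference of -1.66 (standard error 0.23, limma adjusted p = 0.0233), in the test of the difference itself, with the shRNA2 libraries below the shRNA1 libraries in all 3 against 3. The difference passed the threshold in 2 of the 9 fits that leave out 1 library, with limma adjusted p from 0.0355 to 0.137. No member gave such a difference past the threshold. Groups of 3 libraries were not screened for single outlying samples.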

How the results depend on the processing

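The 3 calls with each hairpin rest on adjusted p-values close to the threshold, and with 3 libraries a group and an unknown read depth their number moved between settings. With shRNA2 against control, the number of members called was 1 with libraries centred on their median and 1 without the intensity trend (Slc22a5 in both), 5 with the replicate block and 6 without the libraries numbered 0. With shRNA1 against control it was 1 without the intensity trend (Cpt1c), 0 when only the groups compared were fitted, and 5 without the libraries numbered 0, while the replicate block gave 4. In the average of both hairpins it was 5 with the replicate block and 7 without the libraries numbered 0. Between the lines it was 0 with the replicate block and 1, Hadhb, without the libraries numbered 0. With shRNA2, 1330 of all 10762 genes were called with median centring and 1282 without the intensity trend, beside 1392 in the reported fit. With shRNA1, 1200 were called without the trend and 675 with only the groups compared, beside 1336 in the reported fit. Shares for the replicate block and without the libraries numbered 0 are given above. Leaving out each replicate in turn gave 0 to 5 calls with shRNA2, 0 to 2 with shRNA1, 0 to 5 in the average and 0 to 0 between the lines. The share called over all genes moved as well, over 3.77 to 22.8% with shRNA2, 3.05 to 14.7% with shRNA1, 5.72 to 24.5% in the average and 0.0279 to 0.873% between the lines. Calls with 1 hairpin also moved when a library of the other hairpin was left out, since all groups share 1 estimate of the spread; without shRNA1 replicate 0, 5 members and 22.8% of all genes were called with shRNA2. Fitting only the groups compared could not be run for the average, which needs all groups.

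Sign changes occurred in comparisons where the gene was not called, among members and in Echs1. Without the libraries numbered 0, Acads stood at -0.057 and Hadhb at -0.094 with shRNA1, and Cpt2 at -0.064 and Acads at -0.090 in the average. Leaving out each replicate in turn, the log2 fold change with shRNA2 ran from -0.069 to 0.039 for Acadm, -0.12 to 0.024 for Acads and -0.030 to 0.081 for Echs1. With shRNA1 it ran from -0.050 to 0.22 for Acads, -0.080 to 0.050 for Hadha and -0.046 to 0.10 for Hadhb. In the average it ran from -0.036 to 0.065 for Cpt2 and -0.043 to 0.093 for Acads. Between the lines it ran from -0.19 to 0.088 for Cpt1a, -0.25 to 0.15 for Cpt1c, -0.27 to 0.080 for Acadvl, -0.036 to 0.042 for Acadl and -0.26 to 0.014 for Acads. Over all settings and comparisons, 521 single values of the members kept direction and side of the threshold, 61 lost the call, 23 gained one and 25 changed sign. The cause of these shifts was not tested.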
